A study of Chlamydomonas reinhardtii with 45 samples.

Results

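This account follows 81 transcripts of the unicellular green alga Chlamydomonas reinhardtii that were low throughout the later part of a salt treatment. They were chosen on values of these data. For each transcript and group, D is the mean of log2(TPM + 1) minus the mean of the untreated cells collected at the start, and a transcript was taken as a member where D was -2 or lower at 4, 6 and 24 h of NaCl alike. TPM is the length-corrected share of a library that a transcript takes, scaled so that every library sums to 1000000. Of 19526 transcripts, 13651 reached 1 TPM in at least 3 of the 45 libraries, and 81 of these were members. All 81 passed this filter on low values by the rule itself. NaCl and mannitol both draw water out of a cell, but NaCl also brings sodium and chloride ions. A transcript low in NaCl and not in mannitol sets the 2 treatments apart. The molar doses also differed, and the osmotic strengths of the treatments were not compared. Whether ions or osmotic strength lay behind a difference was not tested. Algae such as Chlamydomonas meet a loss of water with compatible solutes and with transporters at their membranes.

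The samples were wild-type cells of strain CC-4533, grown in liquid acetate medium under continuous light and exposed to NaCl (100 mM) or to mannitol (300 mM) for 15, 30 or 60 min or for 4, 6 or 24 h, with 3 libraries in each of the 12 treated groups. Cells with no osmolyte gave 4 libraries at 24 h (control 24 h) and 5 at the start (control 0 h). The time points of a treatment were drawn from the same flask and replicates were grown on different days, so the early NaCl libraries, which the rule did not use, still come from the cultures whose late libraries chose the members. Marker symbols of gametes matched no identifier in the tables used, so the vegetative state of the cells was not checked.

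Late NaCl and control 0 h libraries chose the members. Every comparison with these libraries is therefore given as a description. Calls are given only between groups that the rule did not use, with limma on log2(TPM + 1) over all 13651 transcripts. A transcript was called where the Benjamini-Hochberg adjusted p was under 0.01 and the log2 difference was beyond 2. Reads per library are unknown, since TPM keeps no depth. A single transcript, g15293.t1, took between 5.33% and 52.3% of a library, which moves the TPM of all other transcripts, so the median over all transcripts tested stands beside each median of the members. A later run of library numbers in the labels, here called the second library series, holds replicate 3 in each of the treated groups, and in each control replicate 5. P-values measure the spread between these cultures, and in bulk RNA fewer expressing cells cannot be told apart from less RNA per cell.

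Before treatment the members were expressed at moderate levels. Their mean TPM in control 0 h ran from 4.12 to 332 with a median of 20.0, and the median over all transcripts tested was 5.48. D of -2 or lower cannot be reached from a control 0 h level near 0. The higher level of the members therefore follows in part from the rule. The median D of the members was -2.498 at 4 h of NaCl. It was -2.72 at 6 h and -2.71 at 24 h, against -0.34, -0.30 and -0.39 for all transcripts tested. The lowest D was -5.22, in Cre10.g452250 at 6 h. The values closest to the threshold were -2.01 in Cre03.g162850 and Cre14.g610500 at 4 h and -2.01 in Cre14.g624000 at 24 h, all members. The transcripts just outside it were Cre12.g486200, Cre03.g207900 and g18403, with -1.999, -1.995 and -1.991 at 24 h. The lowest of the 3 late values fell at 24 h in 37 members.

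**Figure D1:**
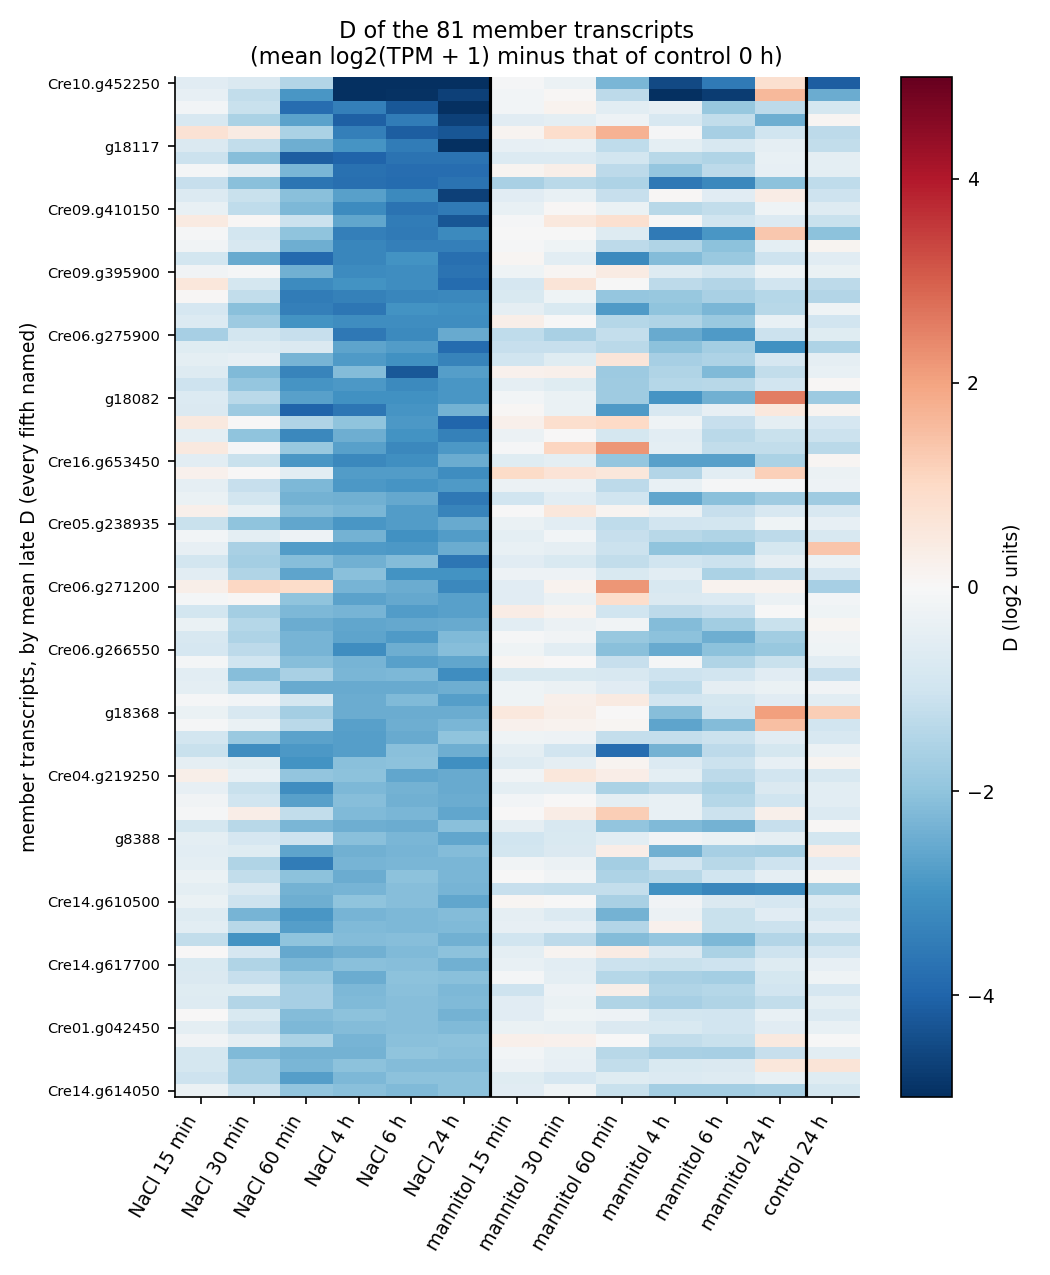
Rows are the 81 members ordered by their mean D over 4, 6 and 24 h of NaCl, columns are the treated groups and control 24 h, and colour gives D in log2 units (blue below, red above control 0 h). The 3 late NaCl columns are blue in every row because they chose the members, whereas mannitol 24 h holds 6 members with D of 1 or more.

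The most abundant member was Cre07.g349200. It had 54.1, 35.2 and 45.4 TPM in NaCl 24 h, against 331, 304, 543, 261 and 221 TPM in control 0 h. Cre07.g349200 was still at 269, 317 and 221 TPM at 60 min of NaCl, and its low libraries were those of the later times. At 24 h of mannitol it was at 155, 92.5 and 139 TPM, above all 3 NaCl 24 h libraries. The files and tables used give this gene no name.

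In g18117 and g9144, as in some other members such as g11651, the mean was lower at each successive time of NaCl. g18117 had 17.4, 24.6 and 33.7 TPM at 60 min of NaCl and 21.5, 13.7 and 15.6 TPM at 4 h. At 6 h it had 13.9, 12.7 and 7.93 TPM, and at 24 h 3.45, 4.201 and 2.58 TPM. In control 24 h, g18117 stood at 53.6, 57.4, 56.0 and 66.2 TPM. g9144 followed a like course, with 15.3, 17.8 and 21.8 TPM at 60 min and 2.65, 3.23 and 1.26 TPM at 24 h of NaCl. In both, the 24 h libraries were the lowest of the NaCl course. In mannitol 24 h, g9144 reached 133, 115 and 73.8 TPM, all above the 35.9, 40.3, 39.6 and 40.1 TPM of control 24 h, but with a log2 difference of 1.40 (SE 0.25) this was not called (limma, adjusted p = 0.0105).

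Most members were already low at 60 min of NaCl. Their median D was -0.48 at 15 min, -1.13 at 30 min and -2.34 at 60 min, against -0.31, -0.63 and -0.57 over all transcripts tested. Median-ratio scaling moved the median of all transcripts to -0.03, -0.11 and -0.09 at these times and that of the members to -0.15, -0.44 and -1.79. As deposited, D was -2 or lower in 12 members (14.8%) at 30 min, beside 2.26% of all transcripts tested. At 60 min it was so in 59 members (72.8%), beside 7.66%. 16 members had the lowest D of all 6 NaCl times at 60 min. In a comparison added after these values had been seen, NaCl 60 min was set against NaCl 15 min, neither of which the rule used. 38 of the 81 members (46.9%) were called lower at 60 min and 0 higher, beside 3.69% of all transcripts tested called lower. In 73 of the 81 members every 60 min library lay below every 15 min library, beside 39.7% of all transcripts. The median log2 difference was -1.89 in the members, against -0.31 in all transcripts tested. The number called lower was 20 under quantile normalization, 25 under median-ratio scaling and 59 with a pseudocount of 0.1.

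**Figure D2:**
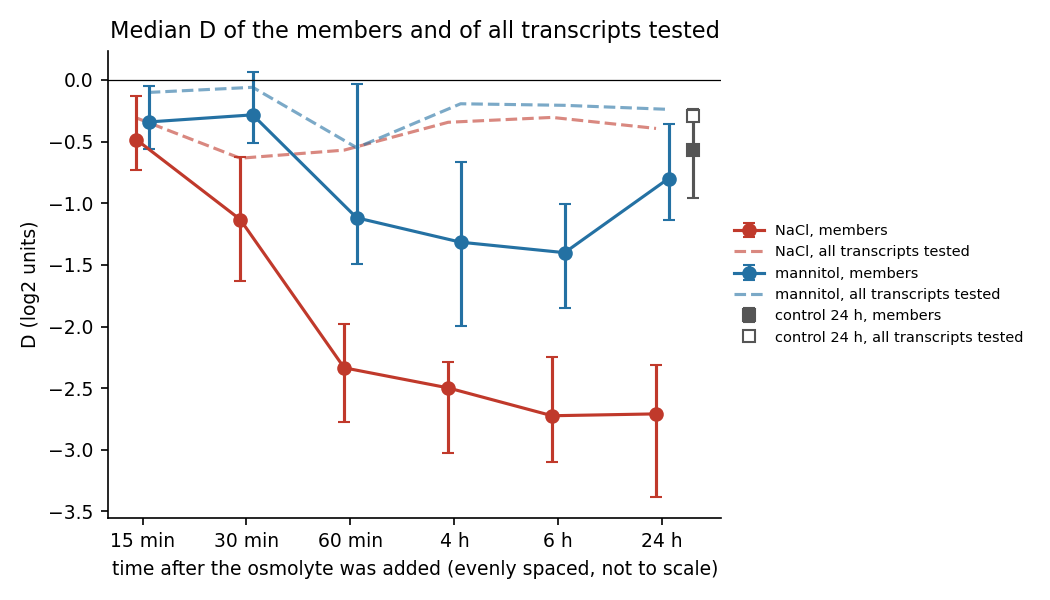
Points are the median D of the 81 members in log2 units at each time after NaCl (red), mannitol (blue) or in control 24 h (grey), with bars from the lower to the upper quartile of the members, and dashed lines and the open square are the medians of all transcripts tested. The NaCl median is -2.34 at 60 min and -2.71 at 24 h, and the mannitol median is -1.40 at 6 h and -0.80 at 24 h.

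g9673 showed the early descent with little scatter. It had 117, 103 and 128 TPM at 15 min, 55.9, 61.1 and 54.8 TPM at 30 min and 7.23, 8.65 and 8.33 TPM at 60 min of NaCl. Between 60 and 15 min of NaCl, g9673 fell by 3.69 on the log2 scale (SE 0.19, limma, adjusted p = 1.18e-06). Mannitol gave 81.9, 109.7 and 74.7 TPM at 60 min. The NaCl and mannitol libraries of g9673 did not overlap at 60 min, and the same held for g16704. g16704 had 0.248, 0.203 and 0.241 TPM in NaCl 60 min, against 4.97, 16.7 and 12.5 TPM in mannitol 60 min.

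5 members lagged behind, with D above -1 at 60 min of NaCl. They were Cre04.g224200, Cre06.g271200, Cre07.g349200, g9869 and Cre13.g603550 (POC6). The paper gave POC names to unannotated proteins in its data on phosphorylation early in NaCl or mannitol. Its figure of these proteins takes location from a prediction or from associated functions. POC6 is placed under the chloroplast in the gene tables of the study, with no further description. It had 21.9, 20.3 and 21.5 TPM at 60 min, 3.91, 3.77 and 8.002 TPM at 4 h and 1.84, 1.21 and 1.58 TPM at 24 h of NaCl. In control 0 h it was at 24.6, 43.5, 73.5, 24.0 and 30.3 TPM. POC6 was among the members lowest at 24 h of mannitol as well, with 4.33, 2.52 and 3.96 TPM in mannitol 24 h, against 13.2, 13.02, 18.3 and 5.57 TPM in control 24 h. The groups did not overlap, but the difference of -1.48 on the log2 scale (SE 0.35) was not called (limma, adjusted p = 0.0423).

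Whether the early decrease depended on the osmolyte, in kind and dose together, was asked by setting NaCl against mannitol at the same time. At 15 min 0 of the 81 members were called in either direction (limma), beside 0.483% of all transcripts tested. An unadjusted p under 0.05 was found in 12 members (14.8%), beside 15.4% of all transcripts. At 30 min 3 members were called lower and 0 higher in NaCl, beside 0.945% of all transcripts called lower. These were Cre17.g696700, Cre05.g237150 and g11490. At 60 min 21 members (25.9%) were called lower in NaCl and 0 higher, beside 3.55% of all transcripts called lower and 0.835% called higher. Every NaCl library lay below every mannitol library in 59 members (72.8%), beside 28.7% of all transcripts. The median difference at 60 min was -1.35 in the members and -0.13 in all transcripts tested.

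At 30 min the difference ran through much of the transcriptome. The median was -0.92 in the members and -0.58 in all transcripts tested, and 35 members (43.2%) had an adjusted p under 0.01 at any size of difference, beside 24.1% of all transcripts. The share of g15293.t1 moved with this comparison, at 19.7% to 49.2% in NaCl 30 min and 6.68% to 25.7% in mannitol 30 min. After removal of g15293.t1 and g15294.t1 from the TPM, an alternative chosen after seeing the data, 0 members were called at 30 min and 20 at 60 min. Median-ratio scaling gave 0 and 24. Without the filter on low values, 1 member was called at 30 min and 3 at 60 min, and without mannitol 30 min replicate 2 there were 6 at 30 min.

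**Figure D3:**
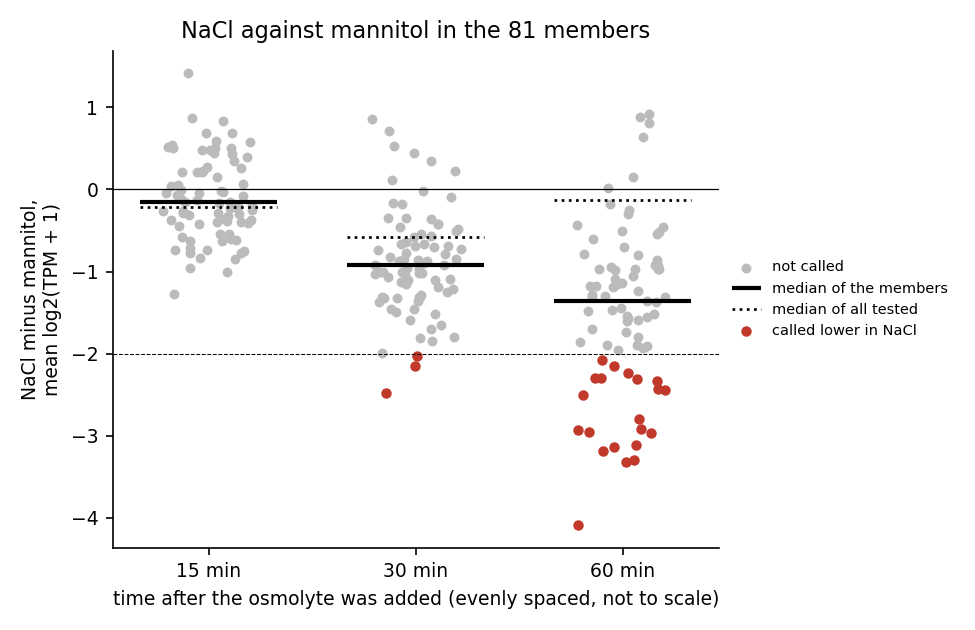
Each point is 1 of the 81 members, and the vertical axis gives the mean log2(TPM + 1) of the 3 NaCl libraries minus that of the 3 mannitol libraries at 15, 30 and 60 min (red, called lower in NaCl). The thick line, the median of the members, is at -0.15, -0.92 and -1.35, and the dotted line, the median of all transcripts tested, at -0.22, -0.58 and -0.13.

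In an interaction test added after these values had been seen, the NaCl minus mannitol difference at 60 min was set against that at 15 min. 25 members (30.9%) were called for a lower difference at 60 min and 0 for a higher one, beside 5.86% and 2.35% of all transcripts tested (limma). Leaving out 1 library at a time gave 21 to 27 called members.

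In 4 members D was 1 or more at 60 min of mannitol, beside 1408 of the 13651 transcripts tested. In these 4 the mannitol 60 min libraries were the highest of all 45. Cre02.g145850 had 2.11, 1.97 and 3.23 TPM in NaCl 60 min, against 44.8, 84.4 and 48.5 TPM in mannitol 60 min. This was the largest decrease among the called members, -4.09 on the log2 scale (SE 0.31, limma, adjusted p = 1.94e-08). Cre02.g145850 was higher in mannitol 60 min than in mannitol 15 min, by 2.25 (SE 0.39, adjusted p = 3.38e-07), a call lost without mannitol 60 min replicate 2, which gives 1.97. In that comparison, also added after the values had been seen, 6 members were called lower and 2 higher, beside 2.62% and 3.77% of all transcripts tested, and median-ratio scaling gave 3 lower and 4 higher. At 6 h of mannitol the Cre02.g145850 libraries were lower again, at 4.97, 4.81 and 3.66 TPM.

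Cre02.g090050 had 4.81, 6.37 and 9.36 TPM in NaCl 60 min, against 57.7, 75.5 and 97.0 TPM in mannitol 60 min. The log2 difference was -3.32 (SE 0.30, limma, adjusted p = 1.14e-07). Later in NaCl it was close to 0, with 0.134, 0.236 and 0.154 TPM at 24 h, whereas mannitol 24 h held 11.50, 8.11 and 11.99 TPM. In Cre06.g271200 the NaCl libraries were high as well. It had 19.4, 38.6 and 32.2 TPM in NaCl 60 min, 68.7, 79.5 and 72.9 TPM in mannitol 60 min and 3.36, 2.95, 5.72 and 4.71 TPM in control 24 h. Both osmolytes were called higher than control 24 h at 60 min, by 2.56 in NaCl (SE 0.28, limma, adjusted p = 2.76e-05) and by 3.88 in mannitol (SE 0.26, adjusted p = 9.21e-08). Control 24 h was itself low in this transcript, with D of -1.66, and its cultures were older. Control 0 h ranged from 11.4 to 24.1 TPM and overlapped NaCl 60 min. Against control 0 h, D at 60 min was 0.91 in NaCl and 2.22 in mannitol. At 4 h the NaCl libraries of Cre06.g271200 held 2.27, 1.305 and 3.29 TPM, and D passed below -2.

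The fourth was FAP33 (Cre14.g614850), listed as a flagellar associated protein with ankyrin repeats. Such proteins belong to the cilium, the motile organelle that Chlamydomonas shares with animal cells. FAP33 had 2.47, 2.99 and 1.83 TPM in NaCl 60 min, against 18.8, 20.2 and 13.98 TPM in mannitol 60 min. The log2 difference was -2.44 (SE 0.30, limma, adjusted p = 3.93e-06), and it differed from that at 15 min by -2.37 (SE 0.43, adjusted p = 2.82e-04). At 24 h of NaCl, FAP33 was at 0.315, 0.277 and 0.361 TPM, and at 24 h of mannitol at 9.74, 8.32 and 7.20 TPM. Of 20 transcripts tested with a ciliary symbol in the tables used, FAP33 was the only member, and their median D at 24 h of NaCl was -1.59.

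**Figure D4:**
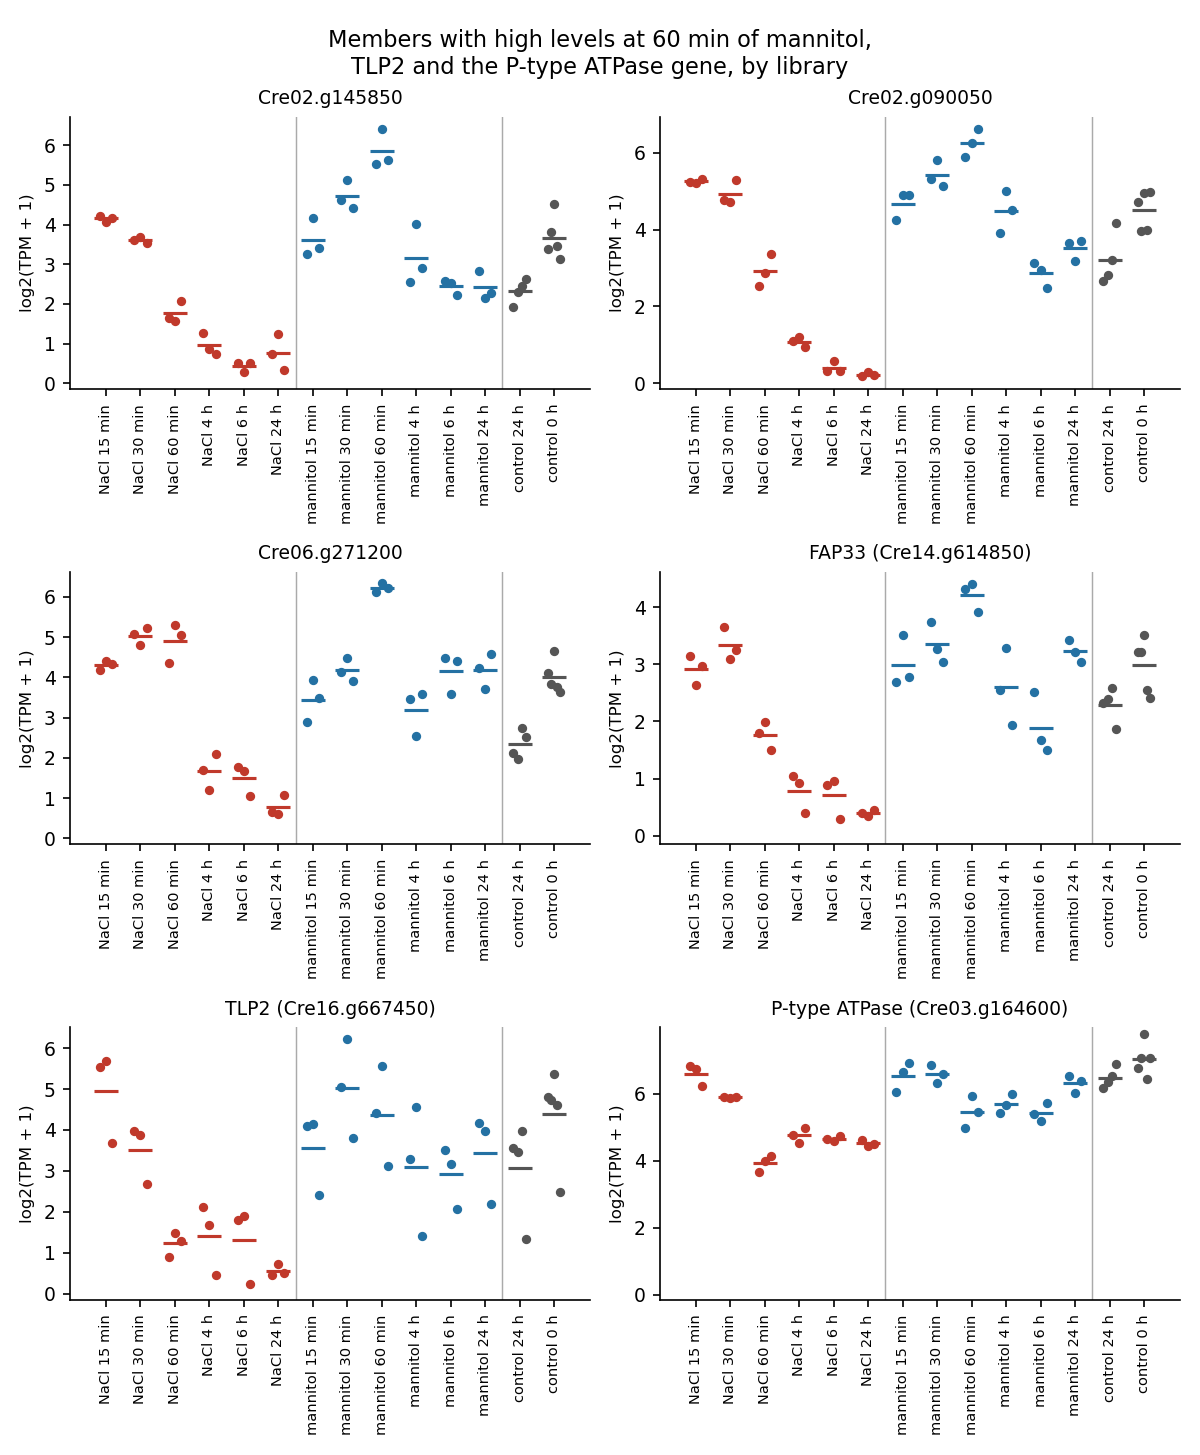
Each point is a library, placed by its log2(TPM + 1), in 6 members across the treated groups, control 24 h and control 0 h, and the short lines are group means. In the first 4 panels the mannitol 60 min libraries are the highest of their panel.

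TLP2 (Cre16.g667450) encodes a Tubby-like protein. In mammals, proteins of this family bind phosphoinositides at membranes. TLP2 had 0.865, 1.82 and 1.44 TPM in NaCl 60 min, against 20.2, 46.2 and 7.68 TPM in mannitol 60 min. It fell by 3.13 on the log2 scale in NaCl (SE 0.47, limma, adjusted p = 1.62e-04). The libraries of the second series were the lowest in most groups of TLP2. In control 0 h they stood at 4.55 TPM in replicate 5, against 23.2 TPM or more in the others, and in mannitol 4 h at 1.66 TPM in replicate 3, against 8.82 and 22.7 TPM. At 15 min of NaCl TLP2 held 45.1, 50.6 and 11.7 TPM, and between 60 and 15 min of NaCl it fell by 3.74 (SE 0.46, adjusted p = 1.56e-04), the largest decrease of all 81 members in that comparison.

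Cre03.g164600 is annotated as a P-type ATPase or cation transporter, with the Arabidopsis plasma membrane H+-ATPase AHA4 listed as its counterpart. Such pumps build the proton gradient that drives ion transport across the membrane. It had 11.8, 15.0 and 16.6 TPM in NaCl 60 min, 30.4, 60.1 and 43.1 TPM in mannitol 60 min and 70.6, 81.4, 91.8 and 117 TPM in control 24 h. Its NaCl 60 min libraries were the lowest of all NaCl times. Against control 24 h, whose cultures were older, the pump transcript was lower by 2.55 in NaCl 60 min (SE 0.22, limma, adjusted p = 6.19e-06). Against mannitol 60 min the difference was -1.52 (SE 0.29, adjusted p = 4.41e-04), past the p threshold but under the size that was called.

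Cre09.g405750 is annotated as a carbonic anhydrase, an enzyme that interconverts CO2 and bicarbonate. It had 9.41, 11.4 and 12.3 TPM at 30 min and 6.75, 4.49 and 4.60 TPM at 24 h of NaCl, against 49.4, 49.04, 72.1, 46.1 and 47.3 TPM in control 0 h. In mannitol 24 h it was at 46.6, 23.1 and 39.7 TPM, and in control 24 h at 23.8, 24.8, 18.9 and 23.5 TPM. The mannitol and control libraries overlapped in part, and no comparison outside the libraries of the rule called the gene. Its largest difference there, -1.37 between NaCl 30 min and mannitol 30 min (SE 0.32, limma, adjusted p = 2.18e-04), was under the size of a call.

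In mannitol the D of the members was less negative, and least so at 24 h among the times from 60 min on. Their median D was -1.12 at 60 min and -1.32 at 4 h, then -1.40 at 6 h and -0.80 at 24 h, against -0.55, -0.19, -0.21 and -0.24 over all transcripts tested. D was -2 or lower in 20 members at 4 h and in 17 at 6 h of mannitol, beside 0.44% and 0.29% of all transcripts tested. 14 members had D of -2 or lower at 4 and 6 h of mannitol, and 2 of these, Cre13.g588950 and Cre16.g678900, were so at 24 h as well. 15 members stayed above -1 at 4, 6 and 24 h, a count that was not made over all transcripts tested. Since control 0 h chose the members, control 24 h was used as the untreated group for tests. Against it, mannitol 4 h had 10 members called lower and 0 higher, beside 0.425% of all transcripts called lower (limma). Mannitol 6 h had 9 called lower and 0 higher, beside 0.205%, and without mannitol 6 h replicate 2 the number was 4. A replicate block, which kept only the shared replicates 2 and 3, gave 4 members at 4 h and 0 at 6 h. The age of the cultures differed in these comparisons.

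Of the members low in mannitol, Cre16.g653450 had 4.96, 2.71 and 3.04 TPM in mannitol 6 h, against 31.2, 29.1, 33.7 and 26.7 TPM in control 24 h. It fell by 2.80 on the log2 scale (SE 0.22, limma, adjusted p = 1.90e-04). g11701 was low for longer. It had 4.56, 3.61 and 3.32 TPM in mannitol 4 h, 6.77, 7.06 and 6.92 TPM in mannitol 24 h and 29.2, 30.6, 40.3 and 29.8 TPM in control 24 h. At 60 min, by contrast, mannitol held 21.3, 48.95 and 27.3 TPM, and NaCl 60 min 2.17, 3.88 and 3.22 TPM. g11701 was called lower in mannitol at 4, 6 and 24 h, with -2.07 at 24 h (SE 0.23, limma, adjusted p = 4.60e-04), a call lost without control 24 h replicate 4, which gives -1.96.

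At 24 h mannitol and untreated cultures were of the same age. 3 members were called lower and 5 higher in mannitol 24 h than in control 24 h, beside 0.0659% of all transcripts tested called lower and 0.454% called higher (limma). Those called lower were g9676, Cre12.g489300 and g11701. Those called higher were Cre10.g452250, g18082, g18268, Cre14.g613800 and Cre10.g458850. The median difference of the members was -0.13 and that of all transcripts 0.08. Removal of g15293.t1 and g15294.t1 from the TPM gave 1 lower and 6 higher. Without the filter on low values 1 member was called, and leaving out 1 library at a time gave 5 (without mannitol 24 h replicate 1) to 8. With a replicate block, which kept only the shared replicates 2 and 3, 0 members and 0 of all transcripts tested were called. The call of Cre12.g489300 was lost on leaving out any single library but control 24 h replicate 5, with differences of -2.52 to -1.97.

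The 5 members called higher shared a course. They were the only members with D of -2 or lower at 4 and 6 h of mannitol and above -1 at 24 h. In each the mean of control 24 h was below that of control 0 h. By D this was so in 68 of the 81 members and in 85% of all transcripts tested. g18268 had 106, 69.7 and 128 TPM in mannitol 24 h, against 4.22, 2.93, 4.36 and 9.28 TPM in control 24 h. In NaCl 24 h it was at 0.183, 0.483 and 0.210 TPM. It was listed at 0 in all libraries of both osmolytes at 4 h, and in control 0 h at 31.7, 31.0, 43.0, 22.6 and 31.4 TPM. The difference between mannitol 24 h and control 24 h was 4.10 (SE 0.34, limma, adjusted p = 4.99e-05).

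Cre10.g452250, the member with the lowest late D, had 71.8, 44.0 and 127 TPM in mannitol 24 h, against 1.08, 0.359, 1.28 and 4.27 TPM in control 24 h. This was the largest increase of all members in that comparison, 4.95 on the log2 scale (SE 0.46, limma, adjusted p = 1.94e-04). At 4 h of mannitol it was at 2.57, 0.241 and 0.407 TPM, and at 24 h of NaCl at 0.450, 0.198 and 0 TPM. In the untreated culture at the start it was at 41.6, 38.3, 41.3, 30.4 and 60.9 TPM, and its D in control 24 h was -4.14, so that control 24 h was itself low in this transcript.

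g18082 had 59.3, 40.3 and 45.1 TPM in mannitol 24 h, against 0.528, 1.32, 1.22 and 2.52 TPM in control 24 h. It was the member highest above its own starting level, with D of 2.57. The difference from control 24 h was 4.41 (SE 0.30, limma, adjusted p = 2.35e-05). Cre14.g613800 had 29.1, 21.4 and 38.4 TPM in mannitol 24 h, against 1.75, 1.16, 1.73 and 2.88 TPM in control 24 h, a difference of 3.41 (SE 0.29, adjusted p = 4.99e-05). Cre10.g458850 was the weakest of the 5. It had 47.5, 30.8 and 50.4 TPM in mannitol 24 h, against 6.53, 3.48, 6.47 and 13.5 TPM in control 24 h, and its difference of 2.47 (SE 0.36, adjusted p = 0.00352) lost its call without mannitol 24 h replicate 1 (2.38) or 2 (2.68), or control 24 h replicate 2 or 4 (2.45 each). The tables used give none of these 5 genes a name.

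In a comparison added after these values had been seen, mannitol 24 h was set against mannitol 4 h. 6 members were called higher and 0 lower at 24 h, beside 0.227% of all transcripts tested called higher, which were 31 transcripts in all (limma). They were the 5 above and g9869. g9869 had 17.8, 18.6 and 41.6 TPM in mannitol 24 h, against 1.88, 2.07 and 6.22 TPM in mannitol 4 h, a difference of 2.65 (SE 0.41, adjusted p = 1.65e-05). Without the filter on low values 2 members were called.

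**Figure D5:**
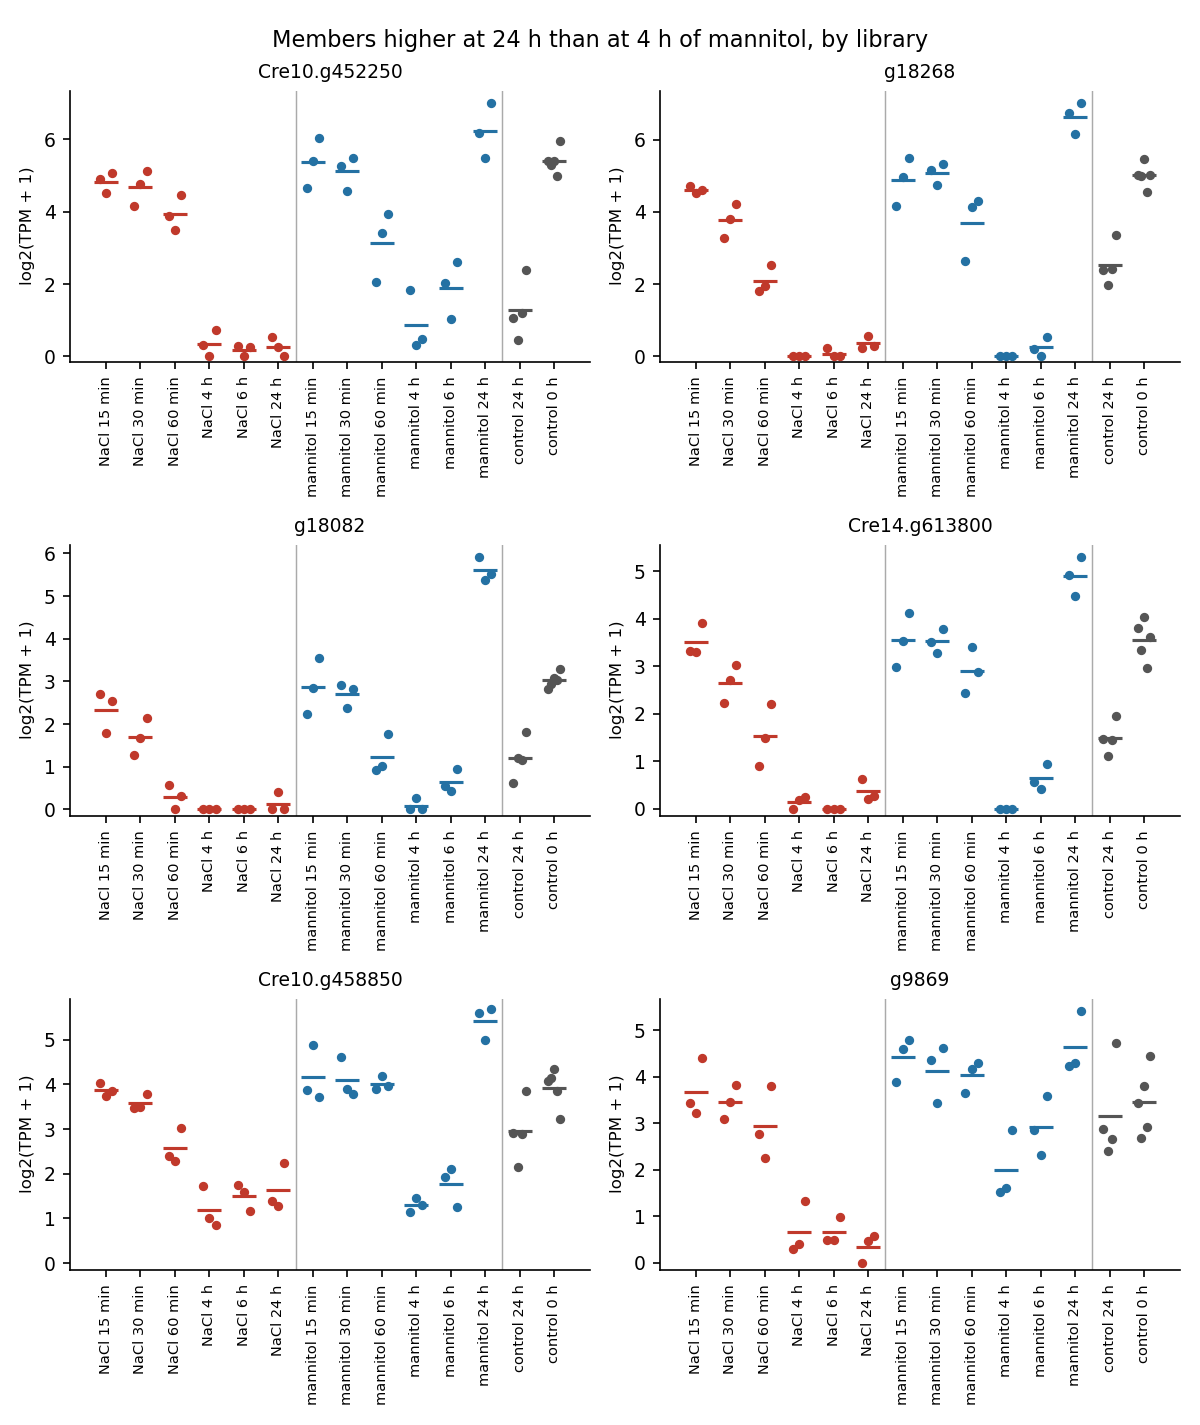
Each point is a library, placed by its log2(TPM + 1), in the 6 members called higher in mannitol 24 h than in mannitol 4 h, and the short lines are group means. In each panel the 3 mannitol 24 h libraries lie above all 3 mannitol 4 h libraries and above all 9 late NaCl libraries.

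Other members were low at 24 h of mannitol. g9676 had 8.27, 2.66 and 7.50 TPM in mannitol 24 h, against 43.0, 30.7, 43.7 and 33.8 TPM in control 24 h. It fell by 2.54 (SE 0.33, limma, adjusted p = 0.00141), a call lost without mannitol 24 h replicate 1 although the difference was then -2.78. Cre13.g588950 was the lowest member at 24 h of mannitol by D. It had 2.15, 1.04 and 3.07 TPM in mannitol 24 h, against 5.10, 6.52, 4.87 and 17.0 TPM in control 24 h, and the difference of -1.49 (SE 0.40, adjusted p = 0.0700) was not called. Its mannitol 24 h libraries lay below its NaCl 24 h libraries of 4.37, 3.67 and 5.44 TPM, and it was the only member in which this was so.

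Control 24 h against control 0 h is a description, since control 0 h chose the members. D was below 0 in 68 of the 81 members (84.0%), beside 85.0% of all transcripts tested, and in 54 after median-ratio scaling. The median D of the members in control 24 h was -0.57, against -0.30 over all transcripts tested, and 19 members had D of -1 or lower. Of these 19, 16 lay above -2, beside 433 of the 13651 transcripts tested. 3 were at -2 or lower, beside 0.374% of all transcripts tested, namely Cre10.g452250, g18268 and Cre14.g613800. 2 were at 1 or more. Cre12.g489300 had 46.6, 42.2, 44.1 and 19.5 TPM in control 24 h, against 17.97, 13.6, 17.9, 13.3 and 6.76 TPM in control 0 h, and g18368 had 6.62, 9.49, 9.48 and 36.0 TPM in control 24 h, against 2.65, 4.63, 6.62, 2.71 and 8.42 TPM in control 0 h. The single high library of g18368 and the single low one of Cre12.g489300 were both control 24 h replicate 5, of the second series.

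With control 24 h as reference, the early NaCl groups had more members called lower at each later time. The age of the cultures differed in these comparisons, so treatment and age cannot be told apart in them. At 15 min 0 members were called lower and 4 higher (Cre10.g452250, g18268, Cre02.g090050 and Cre14.g613800), beside 0.154% and 1.26% of all transcripts tested (limma). In all of these control 24 h was itself low, with D of -4.14, -2.48, -1.30 and -2.06 in that order. D of Cre02.g090050 was 0.74 in NaCl 15 min. Without control 24 h replicate 3, 1 member was called. At 30 min 5 were called lower and 2 higher, beside 1.59% and 3.18%, and median-ratio scaling gave 3 in each direction. At 60 min 34 (42.0%) were called lower and 2 higher, beside 5.49% and 2.67%, and quantile normalization left 22 lower. The 2 higher at 60 min were Cre06.g271200 and Cre10.g452250, with D of -1.66 and -4.14 in control 24 h. Cre12.g489300 gave the largest decrease, with 0.703, 1.78 and 0.760 TPM in NaCl 60 min and a difference of -4.19 from control 24 h (SE 0.32, adjusted p = 2.89e-06).

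In the early mannitol groups, set against control 24 h, members were called in both directions. Here too the age of the cultures differed. At 15 min 3 members were called higher and 0 lower, at 30 min 5 higher and 0 lower, and at 60 min 3 higher and 7 lower. Without mannitol 15 min replicate 2 the 15 min count was 0. It was 1 without any other single library but control 24 h replicate 5, and also under median-ratio scaling or quantile normalization. Of all transcripts tested, 0.205%, 0.711% and 5.3% were called higher and 0.0659%, 0.0733% and 2.53% lower at these times (limma). Median-ratio scaling gave 3 higher and 1 lower at 30 min and 7 higher and 6 lower at 60 min. The largest decrease at 60 min was in Cre05.g237150. It had 0.503, 0.678 and 0.525 TPM in mannitol 60 min, against 12.9, 11.3, 17.9 and 30.5 TPM in control 24 h, and fell by 3.51 (SE 0.32, adjusted p = 1.36e-06). NaCl libraries were less low here, with 1.22, 1.998 and 2.86 TPM in NaCl 60 min, above all 3 mannitol libraries, a difference of 0.91 that was not called (SE 0.30, adjusted p = 0.0207).

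At the late times NaCl and mannitol can only be described, since the NaCl libraries chose the members. The median difference between NaCl and mannitol in the members was -1.38 at 4 h, -1.25 at 6 h and -1.97 at 24 h, against -0.13, -0.11 and -0.17 in all transcripts tested. Between NaCl 24 h and control 24 h it was -2.16 in the members and -0.10 in all transcripts tested.

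55 of the 81 had a place in the RefSeq gene table (assembly v5.5), spread over 16 chromosomes with at most 6 on one, chromosome 5. Only Cre05.g237100 and Cre05.g237150 were immediate neighbours in that table, and 4 more pairs lay within 10 genes of each other. Cre05.g237100 had 0.823, 2.24 and 1.60 TPM in NaCl 60 min, against 8.95, 10.4, 11.2 and 9.41 TPM in control 24 h, and it was called lower there as its neighbour was. 23 members (28.4%) carry an identifier of the form g and a number, beside 24.6% of all transcripts tested. 8 (9.88%) had an entry in the phosphoproteome tables of the study, beside 3.08% of all transcripts tested (the members also started from a higher median TPM, as given above). Lists of cell cycle, ribosomal, photosystem, carbon concentrating, nitrogen and starch genes, matched by symbol, held 4, 3, 4, 2, 2 and 1 tested transcripts and no member. At 24 h of NaCl their median D was -1.68, 0.33, -0.61, -0.81, 0.01 and 0.26 in that order, beside -0.39 over all transcripts tested. The cell cycle list held CDKB1, MCM4, RIR1 and RIR2. With so few transcripts per list, the absence of members carries little weight. Genes without a symbol could not be matched. The member Cre09.g405750, annotated as a carbonic anhydrase, has no symbol in the tables used and was therefore outside this match.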

How the data were processed

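Wild-type CC-4533 RNA was measured by poly(A) RNA-seq (1 library per sample, 45 in all). The authors aligned reads with BWA to Chlamydomonas genome 5.6 and used DESeq2 for their own comparisons, with versions not given in the sources used here. The deposited values are TPM per transcript as made by the authors, each library summing to 1000000, so read depth is unknown and no counting interval is given. 1 line without values was left out.

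A pseudocount of 1 was added and log2 taken. Transcripts with 1 TPM or more in at least 3 libraries were kept. Groups were compared pairwise with limma 3.58.1 in R 4.3.3 (trended, robust eBayes), two-sided, with Benjamini-Hochberg adjustment over 13651 transcripts, and differences are of log2(TPM + 1), so that those of low transcripts come out too small. Fits hold only the groups compared. The fit was tested on simulated data. Python 3.11.15, pandas 2.3.3, numpy 2.4.6 and matplotlib 3.10.9 did the rest.

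The members and gene lists were chosen with earlier results of these data known. Members named were the 10 with the lowest mean D over the late NaCl times, the 5 most abundant in control 0 h, those with a name in the tables used, the 5 largest called differences per direction in each comparison outside the libraries of the rule, the 5 highest and 5 lowest D at mannitol 24 h and control 24 h, and the 3 transcripts on either side of the threshold. Cre04.g224200, Cre05.g237100 and g9869 fall outside this rule and were added with their values in view. The comparisons NaCl 60 against 15 min, mannitol 60 against 15 min, mannitol 24 against 4 h and the interaction were added after seeing the data. Alternatives tried were other pseudocounts, scalings, filters, thresholds and fits, blocks for replicate number or library series, and single libraries left out. Names came from the study's phosphoproteome tables, and gene order from RefSeq (assembly v5.5), which matched 55 of the 81 members. No sequence was used here.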

Additional observations from a re-analysis of the deposited data

Results flagged for a closer look

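Among 92 series of control values looked at for the named members, 14 held a library far from the rest of its group by Dixon's criterion. Chance meets it in about 1 of 20 groups of normally distributed values. The values of the members were TPM without log, and all members share the same libraries, so that rate need not hold here. 8 of the 14 were replicate 5, the control library of the second series. In control 24 h, replicate 5 was high in g14958 (384.1 TPM, others 99.8 to 117.6), Cre05.g238650 (328 TPM, others 103.8 to 120.0), g9673 (95.83 TPM, others 60.9 to 62.6), Cre03.g162850 (77.18 TPM, others 29.0 to 31.7), g18368 (35.99 TPM, others 6.62 to 9.49) and Cre13.g588950 (17.02 TPM, others 4.87 to 6.52), and low in Cre12.g489300 (19.48 TPM, others 42.2 to 46.6). In control 0 h, replicate 5 was high in g14958 (291.4 TPM, others 86.9 to 143.3). The part of the library series in these values was not tested.

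Control 0 h replicate 3 was high in g9673 (189.9 TPM, others 103.5 to 121.0), Cre09.g405750 (72.06 TPM, others 46.1 to 49.4) and g9671 (12.54 TPM, others 5.07 to 7.05). Control 0 h replicate 1 was high in g14626 (16.63 TPM, others 7.97 to 10.4). Control 24 h replicate 4 was high in g11701 (40.26 TPM, others 29.2 to 30.6), and control 24 h replicate 2 was low in g9144 (35.95 TPM, others 39.6 to 40.3).

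The NaCl minus mannitol difference at 60 min differed from that at 15 min in 25 of the 81 members by the interaction test (limma), all with the lower difference at 60 min.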

How the results depend on the processing

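Of 147 called differences of named members, 1321 of 1497 alternatives kept the call, 176 lost it and 0 changed sign. These alternatives were a pseudocount of 0.1, median-ratio scaling, removal of g15293.t1 and g15294.t1, and single libraries left out. Quantile normalization, other filters, thresholds and fits, and the blocks are not in this count, and several of them lost many calls, as given below. The number of members was 329 with a pseudocount of 0.1, 35 with median-ratio scaling, 42 with quantile normalization, 302 and 31 at D of -1.5 and -2.5, and 51 with control 24 h as the reference of NaCl 24 h.

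Members called, in either direction, moved as follows. With a pseudocount of 0.1 there were 7 for NaCl against mannitol at 30 min, 33 at 60 min and 12 for NaCl 30 min against control 24 h. For NaCl 60 against 15 min there were 59, and for mannitol 60 against 15 min 13. Over all transcripts tested the counts were 1017, 1376, 1505, 1764 and 1926 in that order. Median-ratio scaling gave 0 for NaCl 30 min against mannitol 30 min, 1 for mannitol 15 min against control 24 h and 25 for NaCl 60 against 15 min, and quantile normalization gave 1, 1 and 20, with 2 for NaCl 15 min against control 24 h. TPM recomputed after removal of g15293.t1 and of g15294.t1, an alternative chosen after seeing the data, gave 0 for NaCl 30 min against mannitol 30 min.

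Without the filter there were 1 and 3 for NaCl against mannitol at 30 and 60 min, 1 for mannitol 24 h, 0 for NaCl 15 min and 0, 0, 6, 2 and 3 for mannitol 15, 30 and 60 min, 4 h and 6 h against control 24 h, 22 for NaCl 60 against 15 min, 0 for mannitol 60 against 15 min, 2 for mannitol 24 against 4 h and 16 for the interaction. A mean TPM of 5 or more gave 4 for NaCl 30 min against control 24 h, and eBayes without trend gave 1 for mannitol 15 min against control 24 h. With differences beyond 1 there were 35 and 50 for NaCl against mannitol at 30 and 60 min. Over all 13651 transcripts tested there were 3510 and 3032. Against control 24 h there were 13, 34 and 59 for NaCl 15, 30 and 60 min, beside 870, 3471 and 4339 of all. For mannitol 30 and 60 min, 4 h and 6 h there were 14, 29, 18 and 16, beside 566, 4346, 529 and 409. There were 70 for NaCl 60 against 15 min, beside 3489. For mannitol 60 against 15 min there were 31, beside 4227. In both comparisons of mannitol 60 min the share of members was close to that of all transcripts. The causes were not tested.

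Same-numbered libraries of NaCl and mannitol correlated by 0.044 to 0.55 in their deviations, all positive and highest in replicate 3 at each time. These values do not settle whether same-numbered libraries were paired. The labels do not say whether a number marks a shared day, and replicate numbers were not taken as pairs. Comparisons of 2 times within an osmolyte, drawn from the same flasks, were not in this check. There a replicate block gave 38 members for NaCl 60 against 15 min and 8 for mannitol 60 against 15 min. It gave 7 for mannitol 24 against 4 h. With a replicate block, 21 members were called for NaCl 60 min against mannitol 60 min, 0 for mannitol 24 h and 1, 8, 4 and 0 for mannitol 15 min, 30 min, 4 h and 6 h against control 24 h. Against control 24 h this block kept only replicates 2 and 3, the numbers both groups share, and so fewer libraries. Replicate 3 is of the second library series in mannitol but not in control 24 h. The effect of the block itself was thus not separated from these.

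Leaving out 1 library gave 61 (without control 0 h replicate 3) to 99 members. Called members ranged from 0 to 1, 2 to 6 and 18 to 29 for NaCl against mannitol at 15, 30 and 60 min, 1 to 6, 5 to 10 and 32 to 38 for NaCl at these times against control 24 h, and 0 (without mannitol 15 min replicate 2) to 4, 4 to 7, 10 to 13, 8 to 11, 4 to 10 and 5 to 8 for mannitol from 15 min to 24 h against control 24 h. For NaCl 60 against 15 min they ranged from 34 to 41, for mannitol 60 against 15 min from 6 to 11, for mannitol 24 against 4 h from 5 to 7 and for the interaction from 21 to 27.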
